A study of Mus musculus with 12 samples.

Results

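The replication-dependent histone genes encode the bulk histones that package DNA as it is copied. They were taken here as every protein-coding gene of the deposited table whose symbol begins with Hist1h, Hist2h, Hist3h or Hist4h, which gave 67 of 54532 genes. Of these, 61 encode core histones (18 H2A, 18 H2B, 12 H3 and 13 H4) and 6 encode linker histones (H1). The data are gene counts from 12 RNA-seq libraries of ATDC5, a mouse cell line labelled as wild-type cartilage progenitor cells, grown in high-sugar medium with serum at 37 °C. They were next exposed to 37 °C, 40 °C or 44 °C over 10 min, with 4 biological replicates at each temperature, and all 3 groups share the same line, medium and genotype. The time from the end of the exposure to RNA extraction is not stated, and RNA was captured on poly-T beads, which hold RNA with a poly(A) tail.

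Core histones form the protein spool of the nucleosome, with H3 and H4 at its centre and H2A and H2B at its flanks, and linker histones bind the DNA where it enters and leaves. The mRNAs of replication-dependent histones are made mainly in S phase and have few or no introns. In place of a poly(A) tail they end just after a conserved stem-loop, which is bound by the stem-loop binding protein SLBP and which the U7 small nuclear RNA helps to cut. Some of these genes also make a minor polyadenylated form that runs past the stem-loop to a later poly(A) signal, and poly-T beads would hold such a form. Replication-independent variants, such as H3.3, H2A.Z and H1.0, are made throughout the cell cycle from ordinary polyadenylated mRNAs.

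The stem-loop was read from the transcripts of GENCODE M21 (mm10), whose starts and ends equalled those of the deposited table for all 67 genes. It is the 16-base element, with a 6-base stem on each side of a 4-base loop, that the transcript models carry after the stop codon in 46 of the 67 genes. Another 13 models end at the stop codon and cannot show it. The lines below give the RNA-sense element in capitals, as DNA letters, with up to 6 bases on either side, for the genes the results turn on: 3 linker genes, 1 gene each of H2A and H2B, an H3 and an H4 gene whose element differs, the H4 gene with the most reads, and the variant gene H2afx.
Hist1h1c: caaaaGGCTCTTTTCAGAGCCaccact
Hist1h1e: ccaaaGGCTCTTTTCAGAGCCacccac
Hist1h1d: caaacGGCTCTTTTCAGAGCCacccac
Hist1h2ae: acaaaGGCTCTTTTCAGAGCCattcac
Hist1h2bj: ccaaaGGCTCTTTTCAGAGCCacgcac
Hist1h3g: ttaaaGGCTCTTCTTAGAGCCacccat
Hist1h4j: ctaaaGGTCCTTTTCAGGACCaccaca
Hist1h4i: ttaaaGGCCCTTTTTAGGGCCaccaca
H2afx: acaaaGGCCCTTTTAAGGGCCaccacc

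The Hist1h1c element lies at chr13:23739507-23739533 on the plus strand with its flanks, that of Hist1h1e at chr13:23621776-23621802 on the minus strand and that of Hist1h4i at chr13:22040960-22040986 on the minus strand. The same 16 bases as in Hist1h1c stand in 26 of the 46 genes, and 8 different versions occur in all. H4 genes use other versions than Hist1h1c does, the most frequent being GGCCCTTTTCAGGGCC in 7 of them. Outside the 67 genes, 16 of 21763 protein-coding genes (0.074%) carry such an element after a stop codon, H2afx among them. In Hist1h1c the element starts 24 bases after the stop codon, and the model runs on for another 840 bases to an AATAAA, the common poly(A) signal, in its last 50 bases. Models of 23 of the 67 genes run more than 100 bases past the element. AATAAA stands in the last 50 bases for 14 of the 67 genes, all among the 54 whose models run past the stop codon, and for 66.0% of other protein-coding genes. A gene counted when any of its coding models held AATAAA there. Genes with more models had more chances, so these shares are not directly comparable. Among the 29 genes that could be tested AATAAA was found in 4 (Hist1h1c, Hist1h2ae, Hist2h2be and Hist1h4j).

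Promoters of Hist1h1c and of Hist1h1e are given because the former gene fell at 44 °C while the latter was not called. The 250 bases before the RefSeq start (GRCm38.p6) are chr13:23738557-23738806 on the plus strand for Hist1h1c and chr13:23622559-23622808 on the minus strand for Hist1h1e. Capitals mark 3 motifs searched on both strands: AAACACA, known as the H1 box of linker histone promoters, CCAAT, and the TATA box TATAAA.
Hist1h1c: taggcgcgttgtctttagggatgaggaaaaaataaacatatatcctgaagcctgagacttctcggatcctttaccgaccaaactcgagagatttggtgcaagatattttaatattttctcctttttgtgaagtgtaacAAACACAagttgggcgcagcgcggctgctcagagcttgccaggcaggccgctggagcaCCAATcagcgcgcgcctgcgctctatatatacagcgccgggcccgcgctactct
Hist1h1e: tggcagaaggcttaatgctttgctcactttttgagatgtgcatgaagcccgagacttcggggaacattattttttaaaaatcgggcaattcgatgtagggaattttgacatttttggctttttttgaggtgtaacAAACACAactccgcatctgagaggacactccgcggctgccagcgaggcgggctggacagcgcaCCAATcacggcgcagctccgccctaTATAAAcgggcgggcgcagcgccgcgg

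Both promoters hold AAACACA and CCAAT, and the exact string TATAAA was matched in Hist1h1e and not in Hist1h1c. Other forms of a TATA box were not searched, and the printed Hist1h1c bases hold tatatata near the start. The absence of TATAAA therefore does not show that Hist1h1c lacks a TATA box. Over windows of 300 bases (250 before to 50 after the start), 62 of the 67 genes had an entry. CCAAT was matched in 53 of the 62, against 37.4% of 32817 promoters: in all 6 H1, 18 H2A, 16 H2B and 10 H3 genes, and in 3 of 12 H4 genes. AAACACA was matched in 5 of 6 H1 genes and in 9 of the 62, against 7.2% of all promoters. The octamer ATTTGCAT was matched in 7 of 18 H2A and 6 of 16 H2B genes and in none of the other 28, against 1.7% of all promoters. GAANNTTC, the core of the heat shock element, was matched in 9 of the 62 and in 0 of 6 H1 genes, against 7.9% of all promoters. A match describes the letters of these windows and no binding was measured.

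Replication-dependent histone genes held few reads, and linker genes held more of them than their number, an excess that lay in Hist1h1c alone. The 12 libraries summed to between 16269026 and 19506705 counts, and the 67 genes took 10569 counts over all of them, between 42.5 and 60.1 CPM (its reads as a share of all counted reads, on the usual per-megaread scale). Core genes gave 7692 of these counts (72.8%) and the 6 linker genes 2877 (27.2%). Hist1h1c alone gave 2320 (21.95%), and the next were Hist1h4i with 1053 and Hist1h2ae with 734. By comparison, the 11 replication-independent variant genes summed to 2402 ± 33.6 CPM at 37 °C (SD, n = 4).

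Of the 67 genes, 57 had at least 1 read in some library and 37 had a read in all 12. The other 10 were listed at 0 in every library: Hist1h1t, the testis linker gene, Hist1h2aa, Hist1h2ba, Hist1h2br, Hist2h2aa1, Hist2h2aa2, Hist2h2ab, Hist2h2bb, Hist2h3b and Hist2h3c1. A count of 0 allows up to 3 counts, which is between 0.154 and 0.184 CPM per library and covers counting error only. By chromosome, 50 of 54 genes of the large cluster on chromosome 13 had reads, as did 4 of 10 on chromosome 3, 2 of 2 on chromosome 11 and the single gene on chromosome 6. A filter on low counts kept 29 genes for testing: 4 linker, 5 H2A, 7 H2B, 7 H3 and 6 H4 genes, of which 28 lie on chromosome 13 and 1, Hist2h2be, on chromosome 3. Just inside the filter were Hist1h4h with 95 counts over the 12 libraries and Hist1h2ab with 100, and just outside were Hist1h4c with 89 and Hist1h3d with 88. The 28 genes with reads that were not tested had totals between 1 and 89 and at most 15 counts in any library.

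Near-identical copies limit what single core genes show. How multi-mapped reads were counted is not given in the sources used here, and neither is the use of strand in counting. At least 50% of the 100-base stretches of the model were shared with another gene for 28 of the 67 genes. These were 28 of 61 core and 0 of 6 linker genes, 7 of the 10 genes at 0 and 8 of the 29 tested. For Hist1h1c the shared part was 5.1% and for Hist1h4i 15.1%, whereas for Hist1h2ao it was 92.7% and for Hist1h3h 92.0%. The division of reads among such copies is uncertain. Hist1h1e also shares exon sequence on the same strand with Hist1h2be, so the reads of both are uncertain, and Hist1h2ae lies opposite the predicted gene Gm44394.

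**Figure D1:**
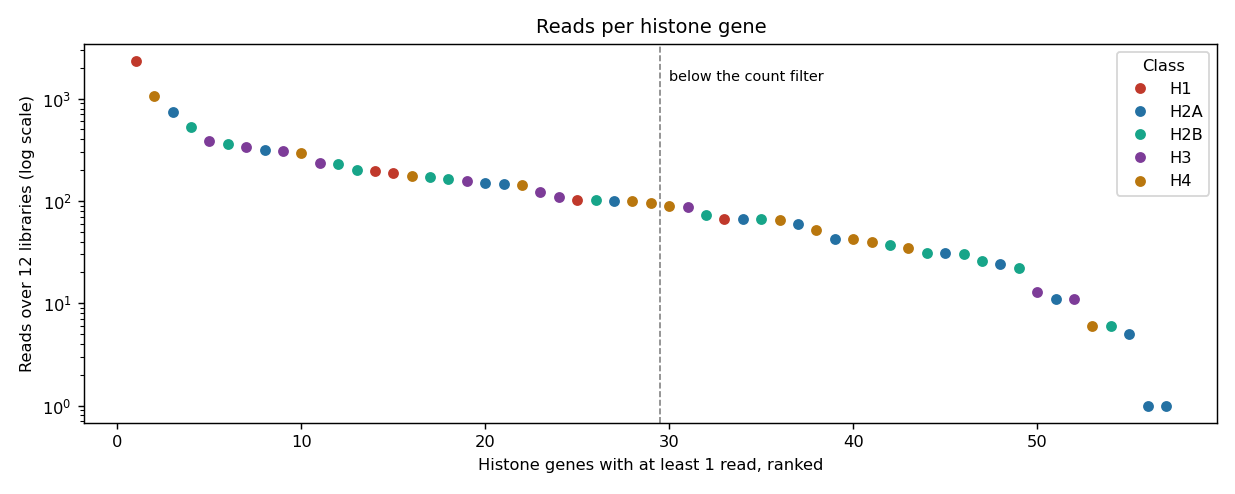
Reads of each replication-dependent histone gene summed over the 12 libraries (vertical, log scale) for the 57 genes with at least 1 read, ranked (horizontal) and coloured by class. The H1 gene Hist1h1c stands first with 2320 reads, and the dashed line separates the 29 tested genes from the 28 below the count filter.

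Per length of gene model, Hist1h1c averaged 7.11 CPM per kb over all libraries, Hist1h4i 6.98, Hist1h2ae 5.03, Hist1h3h 3.91 and Hist1h2bj 2.39. These were the highest of their classes. At 37 °C Hist1h1c (10.0 CPM per kb) stood above Hist1h4i (7.02), and at 44 °C its level (4.58 CPM per kb) was below those of Hist1h4i (6.06) and Hist1h2ae (5.52). Since models differ in whether they hold sequence past the stop codon, this order depends on the models. Of the 11 replication-independent variants, 9 lay between 26.4 CPM per kb (H2afj) and 356 (H2afz, H2A.Z), with H3f3b (H3.3) at 282, H1f0 (H1.0) at 76.2 and H2afx (H2A.X) at 67.2. The other two lay below Hist1h1c, H2afy2 at 2.02 and H1fx at 1.11 CPM per kb.

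At 44 °C the linker histone gene Hist1h1c fell, and no other replication-dependent histone gene passed the test in either direction. Hist1h1c encodes H1.2 (ENSMUSG00000036181, chromosome 13, 23738808 to 23740367, plus strand, mm10), one of the somatic linker histones. In replicates 1 to 4 of the 37 °C group it had 18.8, 14.4, 14.6 and 14.6 CPM (mean 15.6 ± 2.11, SD, n = 4). At 40 °C it had 12.4, 9.44, 10.0 and 10.3 CPM (10.5 ± 1.28), and at 44 °C 6.95, 5.83, 7.96 and 7.83 CPM (7.14 ± 0.985). Each library of the 37 °C group was higher than each of the 40 °C group, and the latter were all higher than each of the 44 °C group. In raw counts the libraries held 372, 237, 248 and 245 at 37 °C and 119, 96, 136 and 137 at 44 °C.

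Between 44 °C and 37 °C, Hist1h1c had a log2 fold change of −1.13 ± 0.13 (SE), a 2.18-fold lower level (edgeR quasi-likelihood test with Benjamini-Hochberg adjustment, adjusted p = 0.000166). Over the 20 alternative settings its adjusted p lay between 3.55e-13 and 0.000881 and its log2 fold change between −1.18 and −1.03. It was 1 of 29 tested histone genes called, where 13.7% of all 14424 tested genes were called, 7.11% as lower and 6.58% as higher, and 1 of 29 whose groups did not overlap, as for 17.8% of all genes. Ranked by log2 fold change it was number 59 of the 1026 genes that fell. In bulk RNA, fewer cells with the transcript and less of it per cell cannot be told apart.

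**Figure D2:**
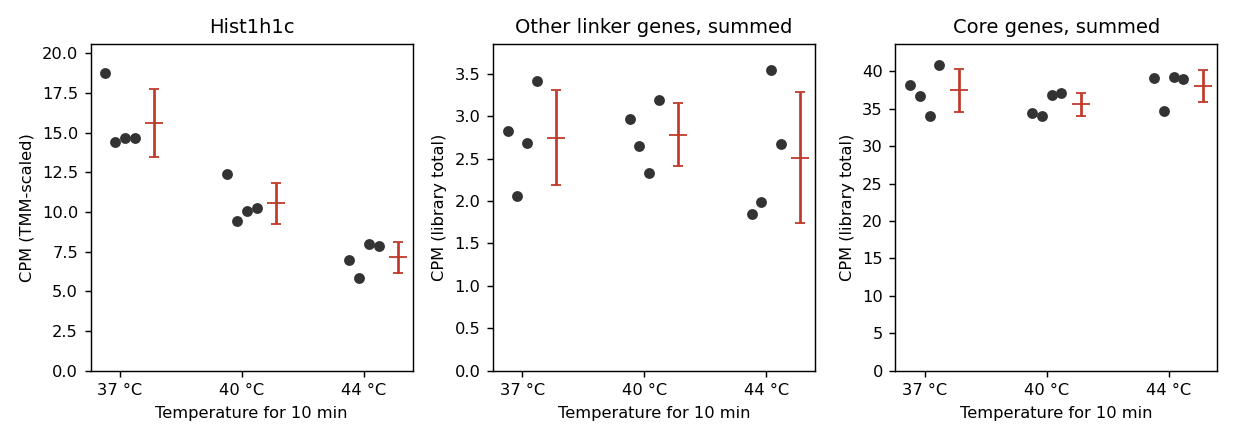
Levels by library at 37 °C, 40 °C and 44 °C (4 points each, in the order of replicates 1 to 4), in CPM with axes from 0: Hist1h1c on TMM-scaled library sizes, and the summed linker genes without Hist1h1c and summed core genes on library totals. Bars give mean ± SD. The Hist1h1c groups do not overlap (15.6, 10.5 and 7.14 CPM on average), while the 3 groups overlap in the other panels.

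The step from 37 °C to 40 °C in Hist1h1c was not called. Its log2 fold change was −0.57 ± 0.13 (SE) with an unadjusted p of 0.000486 and an adjusted p of 0.823 (edgeR), and its adjusted p lay between 0.0690 and 1 over the alternatives. In this comparison edgeR called 0 of 29 histone genes and 0 of all tested genes (0% called). At an unadjusted p under 0.05 it was the only histone gene of 29, where 5.21% of all genes passed, and DESeq2 called 0 of the 29 histone genes and 4 genes in all (0.0277%). Its groups did not overlap, as for 3.83% of all genes.

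From 40 °C to 44 °C, Hist1h1c fell with a log2 fold change of −0.56 ± 0.13 (edgeR adjusted p = 0.0258), 1 of 29 histone genes called where 5.02% of all genes were called, 3.14% as lower and 1.88% as higher. DESeq2 also called Hist1h1c, but gave no adjusted p for 19 of the 29, and it called 9.79% of all genes it gave one. Leaving out 40 °C replicate 1 (adjusted p = 0.0970), 3 (0.0535) or 4 (0.0538) or 44 °C replicate 2 (0.0825) ended the edgeR call, as did fitting only these 2 groups (0.0578). The 3 comparisons share groups of libraries, so they are not separate evidence. In a joint test over the 3 temperatures, 1 of 29 histone genes was called, Hist1h1c, where 8.21% of all genes were called.

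The other linker genes gave small values with wide errors. Hist1h1e encodes H1.4, another main somatic linker histone. It had 1.31, 0.546, 0.885 and 1.07 CPM at 37 °C, 0.954, 0.697, 0.729 and 1.60 at 40 °C and 0.642, 0.547, 1.52 and 0.858 CPM at 44 °C, and the 3 groups overlapped. Its log2 fold change at 44 °C against 37 °C was −0.11 ± 0.39 (edgeR adjusted p = 0.882). Hist1h1d (H1.3) had 0.706, 1.09, 0.826 and 1.31 CPM at 37 °C, 1.25, 0.887, 0.937 and 0.742 at 40 °C and 0.526, 0.486, 1.29 and 0.915 CPM at 44 °C. These overlapped as well, with −0.28 ± 0.35 (edgeR adjusted p = 0.622).

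Hist1h1b (H1.5) had 0.504, 0.243, 0.708 and 0.716 CPM at 37 °C, 0.179, 0.697, 0.312 and 0.684 at 40 °C and 0.467, 0.425, 0.644 and 0.400 CPM at 44 °C, again overlapping. Its log2 fold change was −0.16 ± 0.44 (edgeR adjusted p = 0.836). Intervals of 1.96 SE on each side lay above the fitted value of Hist1h1c at 44 °C against 37 °C for all 3 genes. The interval lay above a 2-fold decrease for 2 of the 3. Such intervals are narrower than the edgeR test implies. That of the H4 gene Hist1h4h began above 0 (0.000978), where its unadjusted p was 0.0688 (edgeR). Wider intervals could lower these counts. The fitted value of Hist1h1c has an error too: its own interval ran from −1.39 to −0.869. It overlapped those of Hist1h1b (lower end −1.02), Hist1h1d (−0.955) and Hist1h1e (−0.870). In the other two comparisons, where the value of Hist1h1c was smaller, 0 of 3 linker intervals lay above it, and 9 of 25 (40 °C against 37 °C) and 11 of 25 (44 °C against 40 °C) core intervals did. Hist1h1a (H1.1) had 67 counts over the 12 libraries and was not tested.

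The sums of core and of linker genes took different courses over the 3 temperatures, and the difference lay in Hist1h1c. The summed core genes held 37.4 ± 2.85 CPM (SD, n = 4) in the 37 °C group, 35.6 ± 1.58 in the 40 °C group and 38.0 ± 2.18 in the 44 °C group. The summed linker genes held 18.4 ± 2.42, 13.2 ± 1.54 and 9.69 ± 1.67 CPM. Without Hist1h1c they held 2.75 ± 0.555, 2.78 ± 0.375 and 2.51 ± 0.774 CPM, and the groups overlapped. The ratio of linker to core counts lay between 0.443 and 0.573 at 37 °C, between 0.335 and 0.444 at 40 °C and between 0.224 and 0.295 at 44 °C, so that the libraries at 44 °C lay below all others. Without Hist1h1c the ratio averaged 0.0732, 0.0783 and 0.0658. Hist1h1c took 28.01% ± 2.85 of the counts of replication-dependent histone genes at 37 °C, 21.4% ± 2.30 at 40 °C and 14.98% ± 1.03 at 44 °C.

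No core gene was called at 44 °C against 37 °C. Of the 25 tested, 14 had a positive and 11 a negative log2 fold change, with a median of 0.04 (all tested genes: 0.00) and a range from −0.56 ± 0.58 (Hist1h2bh) to 1.11 ± 0.62 (Hist1h3f, edgeR adjusted p = 0.237), the extremes being named after their values were seen. Hist1h3f was as far from 0 as Hist1h1c, with a larger error. The 4 linker genes had a median of −0.22, and −0.16 over the 3 without Hist1h1c. The median over 25 core genes was −0.04 for 40 °C against 37 °C and 0.15 for 44 °C against 40 °C. With 1 library left out, the first lay between −0.151 and 0.0377, above 0 without 37 °C replicate 1 (0.0365) or 4 (0.0377) or 40 °C replicate 2 (0.0286). The second lay between 0.0112 (without 40 °C replicate 3) and 0.127 (without 44 °C replicate 2), below its value from all libraries in each of the 12 fits. The filter was applied anew in each fit, so the genes behind the median differed too, with 27 core genes without 40 °C replicate 3. At 44 °C against 37 °C, edgeR gave 0 core genes with an unadjusted p under 0.05, where 30.9% of all genes had one. DESeq2 called 1 of the 29 histone genes, Hist1h1c, where it called 21% of the genes it gave an adjusted p, and it gave none for 17 of the 29. The SE of core genes lay between 0.15 and 0.62 (median 0.36), against a median of 0.11 over all genes. For 23 of the 25 the 95% interval lay above the fitted value of Hist1h1c, and for 14 of the 25 it stayed within a 2-fold change in either direction. The count of 23 leaves out the error of Hist1h1c, whose own interval ran from −1.39 to −0.869. Smaller changes of most core genes were not detectable at this depth.

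**Figure D3:**
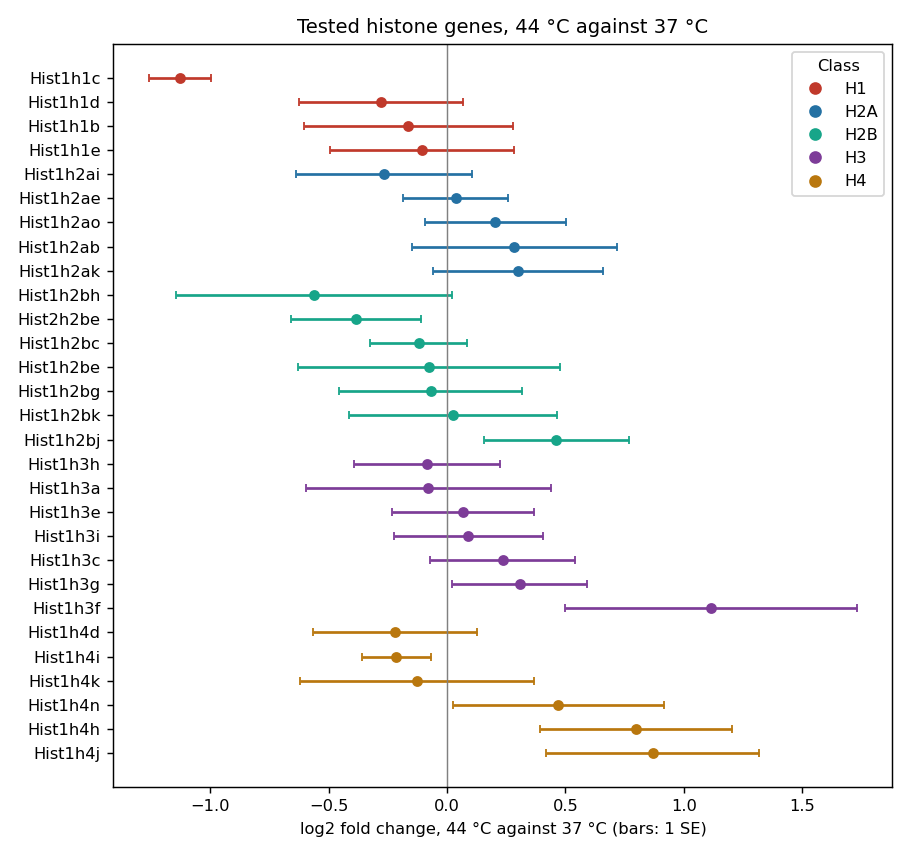
Log2 fold change of the 29 tested replication-dependent histone genes at 44 °C against 37 °C (horizontal), 1 gene per line, grouped and coloured by class, with bars of 1 SE. Hist1h1c (−1.13) has the shortest bar, and core genes lie between −0.56 and 1.11 with bars of 0.15 to 0.62.

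Among the core genes, the H4 gene Hist1h4i had the most reads. It had 5.70, 5.34, 5.01 and 4.36 CPM at 37 °C, 5.60, 6.21, 5.36 and 5.65 at 40 °C and 3.50, 5.22, 4.39 and 4.52 CPM at 44 °C. All 4 libraries at 44 °C lay below all 4 at 40 °C, and the group at 37 °C overlapped both. It was 1 of 2 histone genes of 29, with Hist1h1c, whose groups did not overlap in that comparison, as for 10.7% of all genes. The log2 fold change of 44 °C against 40 °C was −0.37 ± 0.15, which did not pass the adjustment (edgeR, unadjusted p = 0.0228, adjusted p = 0.166), and that of 44 °C against 37 °C was −0.21 ± 0.15 (edgeR adjusted p = 0.347). The 13 H4 genes together held 9.84 ± 0.568 CPM at 37 °C, 11.6 ± 0.132 at 40 °C and 10.2 ± 0.769 at 44 °C. The lowest library at 40 °C (11.4 CPM) lay above the highest at 37 °C (10.6) and at 44 °C (11.2), and groups of single genes did not overlap in 3.83% and 10.7% of all genes in these comparisons. Class sums were compared by their ranges only and were not tested, and those shares are for single genes, not sums. The other core classes had lower means at 40 °C than at 37 °C, with overlapping groups: H2A genes held 8.63 ± 1.38 and 6.78 ± 0.914 CPM, H2B genes 10.6 ± 0.730 and 9.42 ± 1.13, and H3 genes 8.39 ± 1.60 and 7.81 ± 0.731. No single H4 gene was called at 40 °C, where 5 of 6 tested had a positive value against 37 °C.

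The H2A gene Hist1h2ae had 3.08, 3.03, 3.89 and 5.19 CPM at 37 °C, 2.50, 2.98, 3.54 and 2.74 at 40 °C and 5.49, 3.4, 3.57 and 3.09 CPM at 44 °C, and the groups overlapped. Its log2 fold change of 44 °C against 37 °C was 0.04 ± 0.22 (edgeR adjusted p = 0.933). Another H2A gene, Hist1h2ao, chosen after its values were seen, was 1 of 3 histone genes with an unadjusted p under 0.05 at 44 °C against 40 °C, beside Hist1h1c and Hist1h4i, where 20.1% of all genes had one. Its log2 fold change was 0.72 ± 0.31 (edgeR, unadjusted p = 0.0339, adjusted p = 0.202), and 92.7% of its 100-base stretches are shared. The 5 tested H2A genes had a median of 0.20 at 44 °C against 37 °C.

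The H2B gene Hist1h2bj had 0.656, 0.850, 1.36 and 0.895 CPM at 37 °C, 0.715, 1.20, 1.51 and 0.970 at 40 °C and 1.46, 0.972, 1.11 and 1.60 CPM at 44 °C. The groups overlapped, and the log2 fold change at 44 °C against 37 °C was 0.46 ± 0.31 (edgeR adjusted p = 0.329). The 7 tested H2B genes had a median of −0.08, and among them was Hist2h2be (−0.38 ± 0.27), whose model ends in a poly(A) signal. The H3 gene Hist1h3h had 2.07, 1.52, 0.885 and 2.21 CPM at 37 °C, 1.67, 1.58, 1.04 and 2 CPM at 40 °C and 1.75, 1.03, 1.46 and 2.06 CPM at 44 °C. These overlapped, with −0.08 ± 0.31 (edgeR adjusted p = 0.880). The 7 tested H3 genes had a median of 0.09 against 37 °C, and all 7 had a positive value at 44 °C against 40 °C (median 0.28), where none was called.

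Over the 29 tested genes, the group means fell in the order 37 °C, 40 °C, 44 °C in 5 and rose in that order in 4, against 25.3% and 27.2% of all tested genes. The 4 genes whose models end in a poly(A) signal differed among themselves at 44 °C against 37 °C: Hist1h1c fell, Hist2h2be (−0.38) and Hist1h2ae (0.04) were not called, and Hist1h4j had 0.87 ± 0.45 without being called (edgeR adjusted p = 0.204).

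Histone variant genes listed as replication-independent fell in part at 44 °C. Of the 11 genes, 4 fell and 0 rose against 37 °C, with a median log2 fold change of −0.20, where 7.11% of all tested genes fell and 6.58% rose. The label is that of the list, and dependence on the cell cycle was not measured. The model of H2afx holds no AATAAA in its last 50 bases. H2afx, whose H2A.X is phosphorylated at DNA breaks and whose transcript model carries a stem-loop too, had 103, 113, 101 and 105 CPM at 37 °C, 92.8, 103, 109 and 105 at 40 °C and 78.5, 72.8, 71.3 and 61.8 CPM at 44 °C. The libraries at 44 °C lay below all others, and the log2 fold change against 37 °C was −0.57 ± 0.07 (edgeR adjusted p = 0.00035).

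H1f0, the linker variant H1.0 of slowly dividing and differentiated cells, had 212, 172, 167 and 189 CPM at 37 °C, 186, 141, 155 and 157 at 40 °C and 148, 108, 127 and 117 CPM at 44 °C. All libraries at 44 °C lay below all at 37 °C, and the group at 40 °C overlapped both, with −0.56 ± 0.10 against 37 °C (edgeR adjusted p = 0.00323). Cenpa, the H3 variant of centromeres, fell by 0.20 on the log2 scale (SE 0.04, edgeR adjusted p = 0.00784). H3f3b had 897 ± 27.9 CPM at 37 °C and 762 ± 68.7 at 44 °C (−0.24 ± 0.07, edgeR adjusted p = 0.0318), a call that was lost without 37 °C replicate 2 (0.0702), 3 (0.0582) or 4 (0.0822) or 44 °C replicate 2 (0.0740) or 3 (0.05). H2afz had 626 ± 22.3 and 628 ± 25.9 CPM. At 40 °C against 37 °C, 0 of the 11 were called by edgeR, 0 had an unadjusted p under 0.05, and DESeq2 called 0.

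**Figure D4:**
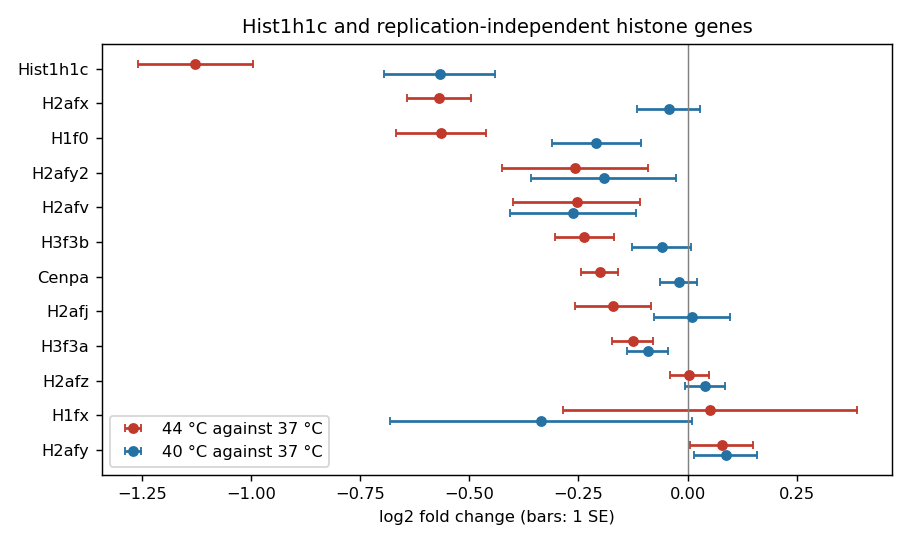
Log2 fold change (horizontal, bars of 1 SE) of Hist1h1c and 11 replication-independent histone genes at 44 °C against 37 °C (red) and at 40 °C against 37 °C (blue), which share the 37 °C libraries. Hist1h1c lies lowest in both, and H2afx and H1f0 follow at 44 °C with −0.57 and −0.56.

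In a list of 15 genes for transcription, processing and decay of histone mRNA, 3 rose and 0 fell at 44 °C against 37 °C, with a median of 0.18, where 6.58% of all tested genes rose and 7.11% fell. The 3 were Ncbp1, a cap-binding subunit (0.33 ± 0.08, edgeR adjusted p = 0.0178), Cstf2, which the cleavage complexes of histone and of polyadenylated mRNAs share (0.29 ± 0.08, 0.0298), and Npat, the S phase activator of histone transcription (0.23 ± 0.07, 0.0443). All 3 calls were lost when 37 °C replicate 1 or 4 or 44 °C replicate 2 or 4 was left out, with adjusted p between 0.0540 and 0.136. The calls of Cstf2 and Npat were also lost without 37 °C replicate 2, and that of Npat without 37 °C replicate 3, 40 °C replicate 1 or 3 or 44 °C replicate 3. Slbp, the stem-loop binding protein, had 111 ± 8.16 CPM at 37 °C, 111 ± 12.4 at 40 °C and 123 ± 3.77 at 44 °C (0.15 ± 0.07 against 37 °C, edgeR adjusted p = 0.195).

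Of 15 genes for histone chaperones and modifiers of new histones, 7 rose and 0 fell at 44 °C against 37 °C, with a median of 0.17, again beside 6.58% and 7.11% of all tested genes. They included Hat1, which acetylates new H4 (0.23 ± 0.05, edgeR adjusted p = 0.00693), and Chaf1b, a subunit of the chromatin assembly factor CAF-1 (0.30 ± 0.07, 0.0105). Rbbp4, another CAF-1 subunit, rose as well (0.17 ± 0.04, 0.0230), a call that was lost without 37 °C replicate 1 (0.0744), 2 (0.0680) or 4 (0.0719), without 44 °C replicate 2 (0.0720) and without a filter on low counts (0.0693). Of 40 DNA replication and S phase genes, 14 rose and 0 fell (median 0.17), beside the same shares of all genes, with Rpa1, a single-strand binding subunit, at 0.30 ± 0.05 (edgeR adjusted p = 0.00118) and Prim1, the primase, at 0.55 ± 0.10 (0.00271). Pcna, the replication clamp, had 300 ± 10.3 and 300 ± 10.1 CPM (edgeR adjusted p = 0.972).

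Of 20 mitosis genes, 3 rose, among them Cdk1 (0.29 ± 0.04, edgeR adjusted p = 0.00118) and Top2a (0.27 ± 0.04, 0.0017), and 3 fell, among them Ccnb2 (−0.37 ± 0.08, 0.00615), where 6.58% of all tested genes rose and 7.11% fell. At 40 °C against 37 °C edgeR called 0 genes of these 4 lists, of which 0, 0, 1 and 2 had an unadjusted p under 0.05 in the order given, and DESeq2 called 0. Beside these values the replication-dependent core genes, whose mRNAs belong to S phase, had a median of 0.04 and no call. Their median SE was 0.36, against 0.068 for the DNA replication genes, so a rise of 0.17 could not have been called in them. With 1 library left out the core median lay between 0.0190 and 0.195. These values therefore do not set the core genes apart from the other lists.

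**Figure D5:**
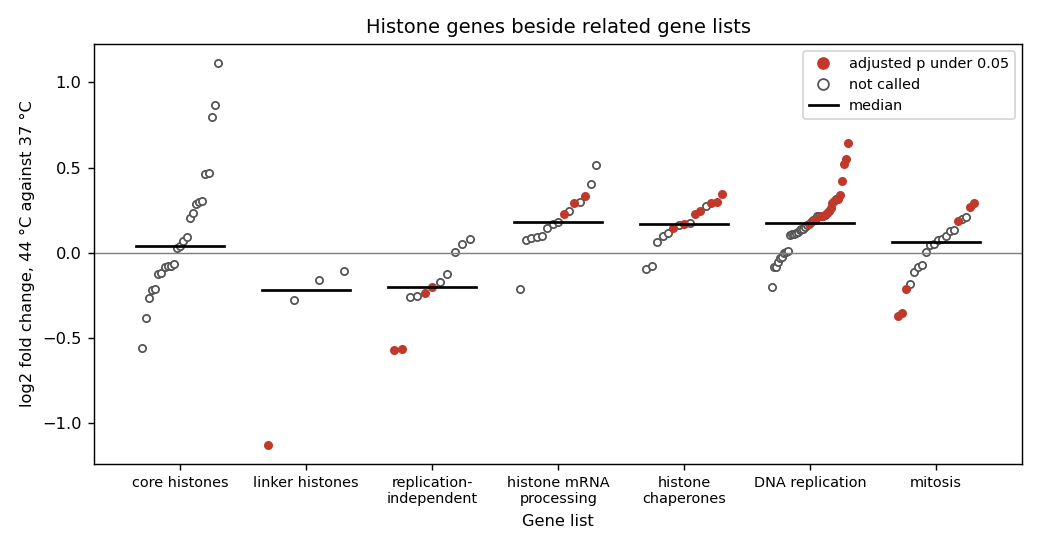
Log2 fold change at 44 °C against 37 °C (vertical) of each tested gene in 7 lists (horizontal), red where the adjusted p was under 0.05 and open otherwise, with the median as a line. Core histones have a median of 0.04 and no red point, the 1 red linker point is Hist1h1c at −1.13, and 14 of 40 DNA replication genes are red above 0. Core histones have larger errors (median SE 0.36) than DNA replication genes (0.068), so calls are not comparable between these lists.

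Poly-T capture leaves RNA without poly(A) tails mostly behind. Reads of genes annotated as small or ribosomal RNA were a small share of all reads but outnumbered the histone reads. The RNAs listed by name as having no tail did not, with a sum between 0.410 and 1.99 CPM per library. Of 12 such listed RNAs found in the table only Rn7sk passed the filter (135 counts over the 12 libraries, 0.36 ± 0.58 at 44 °C against 37 °C, edgeR adjusted p = 0.714). Its value was −0.42 without 44 °C replicate 4, so its sign rests on that library. Genes annotated as small nuclear, nucleolar or Cajal body RNAs summed to between 66.0 and 72.3 CPM at 37 °C and between 63.1 and 86.4 at 44 °C. At 40 °C this sum lay between 52.2 and 79.0 CPM, and the groups overlapped. Genes annotated as ribosomal RNA summed to between 752 and 837 CPM at 37 °C, between 663 and 840 at 40 °C and between 508 and 669 at 44 °C. In every library the 67 histone genes together summed to between 42.5 and 60.1 CPM, less than the small RNA sum and less than the ribosomal RNA sum. Whether reads at these annotated genes came from RNA without tails was not tested. How many histone reads came from RNA without tails was not tested. The ribosomal RNA sum was lower in all libraries at 44 °C than in all at 37 °C, as was Hist1h1c. At 40 °C that sum overlapped both other groups. In 44 °C replicates 1 to 4 it was 669, 649, 594 and 508 CPM, with Hist1h1c at 6.95, 5.83, 7.96 and 7.83 CPM. The part of ribosomal RNA in the result was not tested.

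Within each group the libraries also spread along a shared axis, the first component of deviations from group means over genes other than the histone genes, which held 29.8% of that variance. The libraries averaged −0.425 ± 0.777 (SD, n = 4) on it in the 37 °C group, 0.011 ± 1.02 in the 40 °C group and 0.414 ± 1.25 in the 44 °C group. With this axis as a covariate the log2 fold change of Hist1h1c at 44 °C against 37 °C was −1.05 ± 0.12 (edgeR adjusted p = 1.78e-06). Without 37 °C replicate 1, the library with the highest level, it was −1.03 ± 0.13 (0.000572).

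Markers of cell types moved in part with temperature at 44 °C against 37 °C, where 7.11% of all tested genes fell and 6.58% rose. Of 10 cartilage and progenitor markers 8 passed the filter, Sox9 and Col2a1 among them, while Sox6 (9 counts) and Col1a2 (34) did not, and the list summed to between 619 and 719 CPM at 37 °C and between 472 and 614 at 44 °C, with 2 of 8 falling. All 3 tested smooth muscle markers fell (204 to 233 and 135 to 163 CPM, with Myh11 at 19 counts over all libraries), and 2 of 3 tested endothelial markers rose (2.49 to 3.72 and 4.22 to 6.39 CPM, with Emcn at 1 count). Of 4 tested epithelial markers 1 fell (110 to 147 and 119 to 150 CPM, with Krt5 at 0), and of 2 tested macrophage markers none was called (36.8 to 52.0 and 28.3 to 40.8 CPM, with Adgre1 at 0 and Ptprc at 1 count). The part of these markers in the values of the histone genes was not tested.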

How the data were processed

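The authors deposited raw counts per gene, 1 column per library and not pooled, with gene names, biotypes, coordinates and lengths in the same table. The tools named, per the submitters' processing notes, are featureCounts 1.5.0-p3, StringTie 1.3.3b, HISAT2 2.0.5 and fastp, with build mm10 and no role given for any. Strand use and the handling of reads with several places are not given in the sources used here. Totals were 16269026 to 19506705 counts per library, and no pair of libraries within a group agreed within sampling noise (chi-square per gene 2.88 to 21.4).

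Tests used edgeR 4.0.16 in R 4.3.3: filterByExpr (minimum count 10, minimum total 15), TMM scaling, and a quasi-likelihood fit with 1 mean per temperature over all 12 libraries. Two-sided tests of the 3 pairwise contrasts and a joint test were adjusted by Benjamini-Hochberg over the 14424 genes tested and called at 0.05. SE is the log2 fold change over the root of its F statistic. CPM of single genes use TMM-scaled library sizes, and sums use library totals. The script was tested on simulated data. Alternatives were DESeq2 1.42.0, 2 scalings, 2 filters, 2 groups only, a replicate block, an axis covariate, a stricter threshold and leaving out each library.

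Histone classes were read from the gene symbols. The rule for named genes took each histone gene called, the highest per kb of each class, every tested linker gene, up to 3 genes with the smallest p of each list, and Slbp, Npat, Pcna, H2afz, H3f3b and H1f0. Of these, 1 gene that the rule took is not reported here. The genes and lists were chosen with earlier results of these data known. Of 13 listed RNAs without poly(A) tails, 12 were found. Stem-loops and poly(A) signals came from GENCODE M21 transcripts and promoters from RefSeq (GRCm38.p6). No protein sequences were used here.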

Additional observations from a re-analysis of the deposited data

Results flagged for a closer look

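Of 111 groups of 4 libraries checked for a single library far from the rest, 7 were flagged, and chance flags about 1 in 20 such groups. Hist1h1c in 37 °C replicate 1 stood at 18.8 CPM, above 14.6 in the nearest library, and its fall at 44 °C was also called without that library (log2 fold change −1.03, edgeR adjusted p = 0.000572). The share of replication-dependent histone counts from Hist1h1c was highest in 40 °C replicate 1, at 24.8% against 20.4% in the nearest. Summed core genes were lowest in 44 °C replicate 2, at 34.7 CPM against 39.0 in the nearest. Among the other named genes, H2afz stood high in 44 °C replicate 4 (666 CPM), Prim1 high in 40 °C replicate 2 (103 CPM), Cdk1 low in 40 °C replicate 1 (246 CPM) and Top2a high in 44 °C replicate 3 (1919 CPM).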

How the results depend on the processing

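At 44 °C against 37 °C, 1 histone gene was called under each alternative and leave-one-out fit, Hist1h1c, and at 40 °C against 37 °C 0 were. At 44 °C against 40 °C the count was 0 at an adjusted p under 0.01 and with only 2 groups fitted, and between 0 and 1 with a library left out. With a library left out, the number of all genes called was between 979 and 3355 for 44 °C against 37 °C (979, 1156 and 1063 without 37 °C replicate 1, 2 or 4, and 3355, 980 and 1062 without 44 °C replicate 1, 2 or 4), between 0 and 1 for 40 °C against 37 °C and between 394 and 1265 for 44 °C against 40 °C. Those counts were 630 and 270 for the first and last comparison at an adjusted p under 0.01, 3139, 11 and 2534 with the axis covariate, 4 (40 °C against 37 °C) and 1220 (44 °C against 40 °C) by DESeq2, 13 (40 °C against 37 °C) without a filter and 334 (44 °C against 40 °C) with only 2 groups.

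The core median at 44 °C against 37 °C was −0.0997 under the stricter filter (minimum count 50, which left 2 core genes and Hist1h1c) and 0.168 with the axis covariate, and lay between 0.0190 and 0.195 with a library left out. At 40 °C against 37 °C it was −0.108 under the stricter filter and between −0.151 and 0.0377 with a library left out. At 44 °C against 40 °C it was 0.0101 without a filter, 0.00844 under the stricter filter and 0.0662 with only 2 groups, and between 0.0112 and 0.127 with a library left out. The linker median under the stricter filter, which is the value of Hist1h1c alone, was −1.14, −0.573 and −0.565 in the 3 comparisons. With a library left out it lay between −0.543 and −0.0844, −0.373 and 0.0197, and −0.549 and −0.0263 for the 3 comparisons. The cause of these shifts was not tested, except that the filter was applied anew in each fit and the genes in a median changed with it. At 44 °C against 40 °C the core median covered 25 genes in the main fit. It covered 2 under the stricter filter, 21 with only 2 groups, 52 without a filter and 27 without 40 °C replicate 3.

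Of 1651 values of named genes under alternatives, 1584 kept their call or its absence, 53 lost a call, 14 gained one and 0 reversed (the sign of a value without a call was not counted). Replicate numbers did not pair the libraries consistently: correlations of same-numbered deviations lay between −0.207 and 0.366, with both signs in each comparison. Whether the libraries are paired was therefore not settled. With a replicate block 1, 0 and 1 histone genes were called in the 3 comparisons, and 2557, 0 and 901 genes in all, against 1975, 0 and 724 without it. Without the filter 57 histone genes entered the fit, and edgeR called 1, 0 and 1.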
